A study of Homo sapiens with 15 samples.

Results

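Iron uptake, storage, sensing and export were followed in human K562 leukemia cells through 10 genes, TFRC, TFR2, STEAP3, SLC11A2, SLC25A37, FTH1, FTL, NCOA4, IREB2 and SLC40A1. They were taken by gene symbol from 2 tables of normalized RNA-seq expression, and all 10 were present both among the 17769 genes of the knockout table and among the 60510 genes of the resistance table. K562 is an established line of chronic myeloid leukemia that carries the BCR-ABL1 fusion and expresses many red cell genes. The study asked how loss of either cytosolic isoform of the chaperone HSP90, or resistance to the HSP90 inhibitor PU-H71, altered these cells.

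The knockout table held 9 untreated libraries, 3 each of the empty vector control (EV, wild-type genotype), HSP90α-KO and HSP90β-KO. The labels describe lentiviral delivery of Cas9 with a guide RNA, sorting on a fluorescent marker and selection of single clones. The resistance table held 6 libraries labeled as wild-type genotype. Of these, 3 were of parental cells kept long term in DMSO (P) and 3 of cells kept long term in PU-H71 and picked as resistant clones (PUHr). For PUHr cells the paper reports an acquired missense variant and a copy number gain of HSP90AA1. The number of clones behind each group was not given, so that genotype or resistance and clone cannot be told apart. The paper describes the RNA-seq data of HSP90α-KO against EV and of PUHr against P as 3 independent replicates. Nothing in the labels says that the 3 libraries of a group came from separate cultures, and the p-values measure the spread between these libraries. Each library held 19594381 to 26216730 reads on genes, so that 1 read was worth 0.0381 to 0.0518 CPM (reads scaled to the size of the library). Levels are given in CPM as mean ± SD with n = 3, and fold changes as log2(FC) of deposited values that contain a prior count of about 2 reads, which understates the change of genes with few reads. The 2 tables were normalized separately, and levels are compared only within a table.

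The targeted genes were examined first in every library. HSP90AA1, which encodes HSP90α, was at 716.5, 682.5 and 713.1 CPM in the EV libraries, at 92.6, 88.0 and 90.8 CPM in HSP90α-KO and at 1218, 1190 and 1210 CPM in HSP90β-KO. HSP90AB1, which encodes HSP90β, was at 2823, 2782 and 2812 CPM in EV, at 3267, 3310 and 3344 CPM in HSP90α-KO and at 1939, 1909 and 1889 CPM in HSP90β-KO. Each knockout thus had the lowest level of its own target, and no library overlapped another group for either gene (log2(FC) -2.96 for HSP90AA1 in HSP90α-KO, adjusted p = 2.64e-30, and -0.55 for HSP90AB1 in HSP90β-KO, adjusted p = 1.34e-15, limma). The 59 tested neighbors of HSP90AA1 within 5 Mb had a median log2(FC) of 0.63 in HSP90β-KO, beside 0.78 for the gene, and their part in its level was not tested. From a SNP array of HSP90β-KO cells, the paper reports that it saw no genetic change at this locus. In P cells HSP90AA1 was at 1721, 1720 and 1696 CPM and at 1559, 1592 and 1553 CPM in PUHr. HSP90AB1 was at 4578, 4497 and 4517 CPM in P and at 3953, 3760 and 3828 CPM in PUHr. The log2(FC) of -0.13 for HSP90AA1 and -0.24 for HSP90AB1 in PUHr turned to 0.08 and 0.05 after quantile normalization, so that no direction is read from them. In PUHr the 61 tested neighbors of HSP90AA1 had a median log2(FC) of 0.21, with 31 higher and 9 lower. Their part in its level was not tested there either.

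Markers of K562 cells were present in all groups. All 11 listed markers in the knockout table had more than 3 reads in every library, with sums of 951 to 1128 CPM, and 11 or 12 of 12 did so in the resistance table, with sums of 1874 to 2144 CPM. ABL1 was the most abundant in each library, and HBE1, an embryonic globin gene, had 0 to 4 reads in the resistance table. GATA1, an erythroid transcription factor gene, differed in level between the groups and was at 181 ± 7.36, 205 ± 15 and 147.5 ± 4.62 CPM in EV, HSP90α-KO and HSP90β-KO, and at 283 ± 4.34 and 237 ± 9.85 CPM in P and PUHr. Genes of cell types that should be absent summed to 112 to 120.4 CPM in EV, 131 to 139.2 CPM in HSP90α-KO and 101 to 108 CPM in HSP90β-KO, and to 113 to 118 CPM in P and 58.9 to 61.5 CPM in PUHr. EPCAM, an epithelial gene, was the most abundant of these throughout. LYZ, a myeloid gene, was at 41.0 ± 2.54 CPM in EV, 61.4 ± 3.37 CPM in HSP90α-KO and 30.8 ± 1.02 CPM in HSP90β-KO. It was at 29.3 ± 1.20 CPM in P and 24.1 ± 0.971 CPM in PUHr, which is the order that SLC40A1 has below. The other genes of this list did not all follow it. ALB had the same order, with means of 0.908, 1.91 and 0.0707 CPM in EV, HSP90α-KO and HSP90β-KO and 1.22 and 0.0134 CPM in P and PUHr. CD3E had the opposite order, at 3.37, 0.437 and 4.83 CPM in the knockout table and 0.848 and 1.01 CPM in P and PUHr. In the resistance table, MS4A1 had 0 reads. CD14 had 1 to 14 reads there, with means of 0.15 CPM in P and 0.426 CPM in PUHr. The part of these markers in the iron gene results was not tested. In bulk RNA, fewer cells of a kind and less RNA per cell cannot be told apart.

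Cells take up iron mainly as transferrin bound to transferrin receptors, reduce and release it in endosomes, and pass it to mitochondria for heme and iron-sulfur clusters, to ferritin for storage, or to ferroportin for export. Iron regulatory proteins bind stem-loops called iron-responsive elements (IREs) when iron is scarce, which blocks translation where the element lies in a 5′ UTR and stabilizes the mRNA where several lie in the 3′ UTR of TFRC. Erythroid cells such as K562 have a high demand for iron because they make heme, and RNA-seq sees the mRNA side of this control but neither protein nor iron.

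The IREs are shown as the sequences that iron regulatory proteins bind, and their part in the mRNA levels below was not tested. Annotated UTRs of GRCh38 were searched on the transcript strand for CNNNNNCAGTGN, that is a bulged C, 5 bases and the loop CAGTGN with a last base other than G, flanked by 5 of 5 base pairs above the bulge and at least 4 of 6 below it, with G-T pairs allowed. The pattern occurred in the 5′ UTR of 9 of 19213 genes (0.0468%) and in the 3′ UTR of 17 of 19221 genes (0.0884%). FTL (chr19:48965335-48965363, plus strand) and SLC40A1 (chr2:189580661-189580689, minus strand) each held 1 match in the 5′ UTR. TFRC held 4 in its 3′ UTR on the minus strand, in transcript order at chr3:196050979-196051007, chr3:196050575-196050603, chr3:196050510-196050538 and chr3:196050463-196050491. Each site has 29 bases, and capitals mark the bulged C and the loop.
FTL 5′ UTR: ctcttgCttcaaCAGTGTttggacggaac
SLC40A1 5′ UTR: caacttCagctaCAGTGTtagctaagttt
TFRC 3′ UTR, site 1: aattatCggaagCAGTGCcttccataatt
TFRC 3′ UTR, site 2: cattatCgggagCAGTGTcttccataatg
TFRC 3′ UTR, site 3: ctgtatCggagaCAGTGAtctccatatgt
TFRC 3′ UTR, site 4: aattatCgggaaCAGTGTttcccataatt
TFR2, SLC11A2, SLC25A37, STEAP3, NCOA4 and IREB2 had no match. This says only that the letters together with the required base pairs were not found in their annotated UTRs. A match is a description of sequence and was not tested for function.

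In HSP90α-KO cells, the iron exporter gene SLC40A1 rose from 29.6 ± 0.890 CPM in EV to 66.5 ± 2.63 CPM, and the ferritin light chain gene FTL rose from 1317 ± 16.9 to 1901 ± 60.7 CPM. TFR2, IREB2 and NCOA4 rose as well. The mitochondrial iron importer gene SLC25A37 fell from 214 ± 2.16 to 135 ± 3.76 CPM, and SLC11A2 and FTH1 also fell. Of the 10 genes, 5 rose and 3 fell at an adjusted p under 0.05 (limma, all 17039 tested genes), beside 27.5% of all tested genes that were higher and 26.6% that were lower. SLC40A1 was the 1 member beyond a log2(FC) of 1, a bound that 10.3% of tested genes passed. The libraries of both groups were fully separated for 7 of the 10, beside 57.3% of all genes. The median log2(FC) was 0.09 for the members and -0.01 for all tested genes. With a background of this size the counts say little about the members as a list, and their single values carry the description.

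In HSP90β-KO cells, SLC40A1 went the other way and fell to 10.5 ± 0.948 CPM, 0.357 times the EV level on the fitted scale. SLC25A37, SLC11A2 and FTH1 fell and STEAP3 rose, each by a log2(FC) of 0.20 or less in size. Thus 1 member rose and 4 fell (limma), beside 17.2% of tested genes that were higher and 17.2% that were lower. SLC40A1 was again the 1 member beyond a log2(FC) of 1, which 4.48% of tested genes passed, and libraries were separated for 7 of 10 members beside 46.6% of all genes. The median log2(FC) was -0.07 for the members and 0.00 for all tested genes. Over all tested genes the split of 2938 higher and 2926 lower moved to 2134 and 3673 when libraries were centered on their medians. The count of 5 members fell to 3 without EV replicate 3, without HSP90β-KO replicate 1, without HSP90β-KO replicate 2 or with quantile normalization, to 4 without EV replicate 1 or HSP90β-KO replicate 3, and was 6 without HSP90α-KO replicate 1 or 3. Both knockouts were compared with the same EV libraries, so that differences between them rest on the direct contrast. In that contrast 8 of 10 members differed, 5 higher and 3 lower in HSP90α-KO, beside 59.9% of all tested genes.

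In PUHr cells, all 10 genes differed from P. SLC40A1 fell from 103 ± 3.67 to 46.7 ± 1.36 CPM, TFRC from 1413 ± 4.93 to 895 ± 13.1 CPM, TFR2 from 180.2 ± 2.26 to 116 ± 5.03 CPM and FTL from 1574 ± 26.9 to 1046 ± 55.8 CPM. STEAP3, IREB2, NCOA4 and SLC11A2 fell by less, while FTH1 and SLC25A37 rose. In all, 2 members rose and 8 fell (limma, 16503 tested genes), beside 25.6% of tested genes that were higher and 25.8% that were lower. The split over all tested genes, 4221 higher and 4259 lower, moved to 3514 and 5203 when libraries were centered on their medians. SLC40A1 was the 1 member beyond a log2(FC) of 1, beside 10.1% of tested genes. The libraries were separated for 10 of 10 members and for 58.5% of all genes. The median log2(FC) was -0.30 for the members and 0.00 (0.005) for all tested genes.

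**Figure D1:**
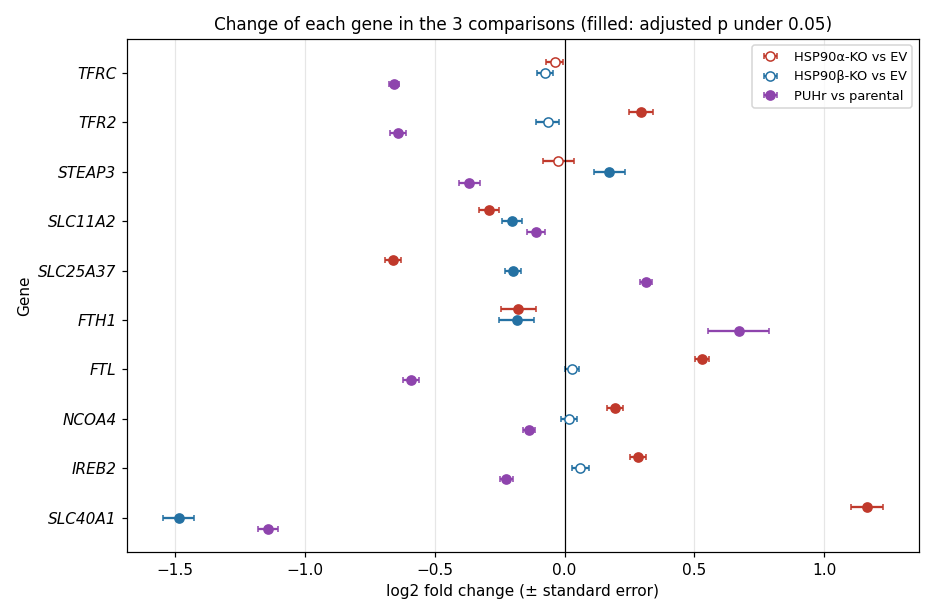
The plot gives the log2 fold change of each of the 10 genes (horizontal axis, with its standard error as a bar) in HSP90α-KO and HSP90β-KO against EV and in PUHr against parental cells, filled where the adjusted p was under 0.05. SLC40A1 lies at 1.16, -1.49 and -1.14, beyond 1 in each comparison, and the other genes lie between -0.66 and 0.67.

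Uptake was represented by TFRC, TFR2, STEAP3 and SLC11A2. TFRC (ENSG00000072274, chr3:196012511-196082153, minus strand) encodes transferrin receptor 1, the main route of transferrin iron into erythroid cells. It was at 379, 354 and 360.1 CPM in EV, at 343, 356 and 366 CPM in HSP90α-KO and at 345, 353 and 340.5 CPM in HSP90β-KO. The HSP90α-KO libraries overlapped EV (log2(FC) -0.04, SE 0.0315, adjusted p = 0.319, limma), and the HSP90β-KO libraries lay just below EV without passing the test (log2(FC) -0.08, adjusted p = 0.0656). The direct contrast of the knockouts was 0.04 (adjusted p = 0.318), and no order of the 3 groups was resolved in this fit. The HSP90β-KO value passed in 6 of 19 alternatives. These were without EV replicate 2 (adjusted p = 0.0281), HSP90α-KO replicate 1 (0.0416) or HSP90α-KO replicate 3 (0.0368), with median centering (log2(FC) -0.12, 0.00625), with voom (0.0418) and with the 6 compared libraries alone (0.0272). Its adjusted p ranged from 0.00625 to 0.322 over all alternatives. The HSP90α-KO value passed with quantile normalization (log2(FC) -0.11, adjusted p = 0.00346), where adjusted p otherwise reached up to 0.838, and the direct contrast turned to -0.06. With median centering that contrast passed at 0.08 (adjusted p = 0.0385, in a range up to 0.718).

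Among P libraries TFRC was at 1410, 1411 and 1419 CPM, and it was at 908, 895 and 882 CPM in PUHr. All PUHr libraries were below all P libraries, with SDs of under 15 CPM in either group, and the fall was by 0.66 on the log2 scale (SE 0.0191, adjusted p = 1.28e-12, limma). The 42 tested neighbors of TFRC within 5 Mb had a median log2(FC) of -0.01 in this comparison. TFRC is the member with 4 matches in its 3′ UTR printed above.

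TFR2 (ENSG00000106327, chr7:100620416-100642779, minus strand) encodes transferrin receptor 2, which binds transferrin with lower affinity and takes part in iron sensing in liver and erythroid cells. It was at 108.5, 115 and 115.5 CPM in EV, at 148, 143.5 and 125 CPM in HSP90α-KO and at 107.9, 108.7 and 107.6 CPM in HSP90β-KO. Each HSP90α-KO library was above each EV library, although replicate 3 lay nearer to EV than the other 2. TFR2 rose in HSP90α-KO (log2(FC) 0.29, SE 0.0452, adjusted p = 4.23e-06, limma), while the HSP90β-KO value of -0.06 did not pass (adjusted p = 0.293). The direct contrast of 0.36 (adjusted p = 1.38e-07) places HSP90α-KO above HSP90β-KO, with EV and HSP90β-KO not resolved. TFR2 was also lower in PUHr, with 178, 183 and 180 CPM in P and 111, 121 and 114 CPM in PUHr. These libraries were clearly apart, and TFR2 fell by 0.64 on the log2 scale (SE 0.0321, adjusted p = 4.42e-10), close to the value of TFRC.

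STEAP3 (ENSG00000115107, chr2:119223831-119265652, plus strand) encodes the endosomal reductase that turns ferric into ferrous iron in the transferrin cycle. It was at 21.7, 23.2 and 22.2 CPM in EV, at 23.7, 20.9 and 21.5 CPM in HSP90α-KO and at 25.03, 25.6 and 25.1 CPM in HSP90β-KO. HSP90β-KO libraries lay above all others, while EV and HSP90α-KO overlapped. The rise in HSP90β-KO was small (log2(FC) 0.17, SE 0.0586, adjusted p = 0.0233, limma), and the direct contrast was -0.20 (adjusted p = 0.00536). The HSP90α-KO value was -0.02 (adjusted p = 0.756), and it was at 0.00 without EV replicate 2 and at 0.01 without HSP90α-KO replicate 2. The size of the rise in HSP90β-KO stayed at 0.15 to 0.20 with any library left out, but its adjusted p lay close to 0.05. It did not pass without EV replicate 1 (adjusted p = 0.0845), EV replicate 3 (0.0681), HSP90β-KO replicate 1 (0.0519), replicate 2 (0.0798) or replicate 3 (0.054), nor with quantile normalization (0.0581) or median centering (0.0885), in a range from 0.0111 to 0.0885. In PUHr, by contrast, STEAP3 went from 55.8, 53.2 and 54.4 CPM in P to 40.9, 43.4 and 42.5 CPM. Those groups did not overlap, and STEAP3 fell by 0.37 on the log2 scale (SE 0.0392, adjusted p = 1.92e-06).

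SLC11A2 (ENSG00000110911, chr12:50979401-51028566, minus strand) encodes DMT1, which moves ferrous iron out of the endosome. It was at 82.7, 82.7 and 81.2 CPM in EV, at 65.9, 66.6 and 69.3 CPM in HSP90α-KO and at 71.8, 69.3 and 73.4 CPM in HSP90β-KO. All knockout libraries were below all EV libraries, and SLC11A2 fell in HSP90α-KO (log2(FC) -0.29, SE 0.0381, adjusted p = 3.68e-07, limma) and in HSP90β-KO (log2(FC) -0.20, adjusted p = 0.000141). The direct contrast of -0.09 passed narrowly (adjusted p = 0.0488) but did not in 12 of 19 alternatives (0.0212 to 0.338), among them those without HSP90α-KO replicate 1 (0.138) or 2 (0.117), HSP90β-KO replicate 1 (0.112) or 3 (0.189), or EV replicate 1 (0.0521) or 3 (0.0623), so that the order of the knockouts was not resolved. SLC11A2 was at 79.7, 77.3 and 77.4 CPM in P and at 75.03, 71.8 and 70.6 CPM in PUHr. The groups did not overlap but lay close together (log2(FC) -0.11, SE 0.0343, adjusted p = 0.0164). That call was lost without P replicate 1 (adjusted p = 0.074), without PUHr replicate 3 (0.0715), with no filter on low values (0.111) and with no intensity trend (0.0689), and adjusted p ranged from 0.00156 to 0.111.

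**Figure D2:**
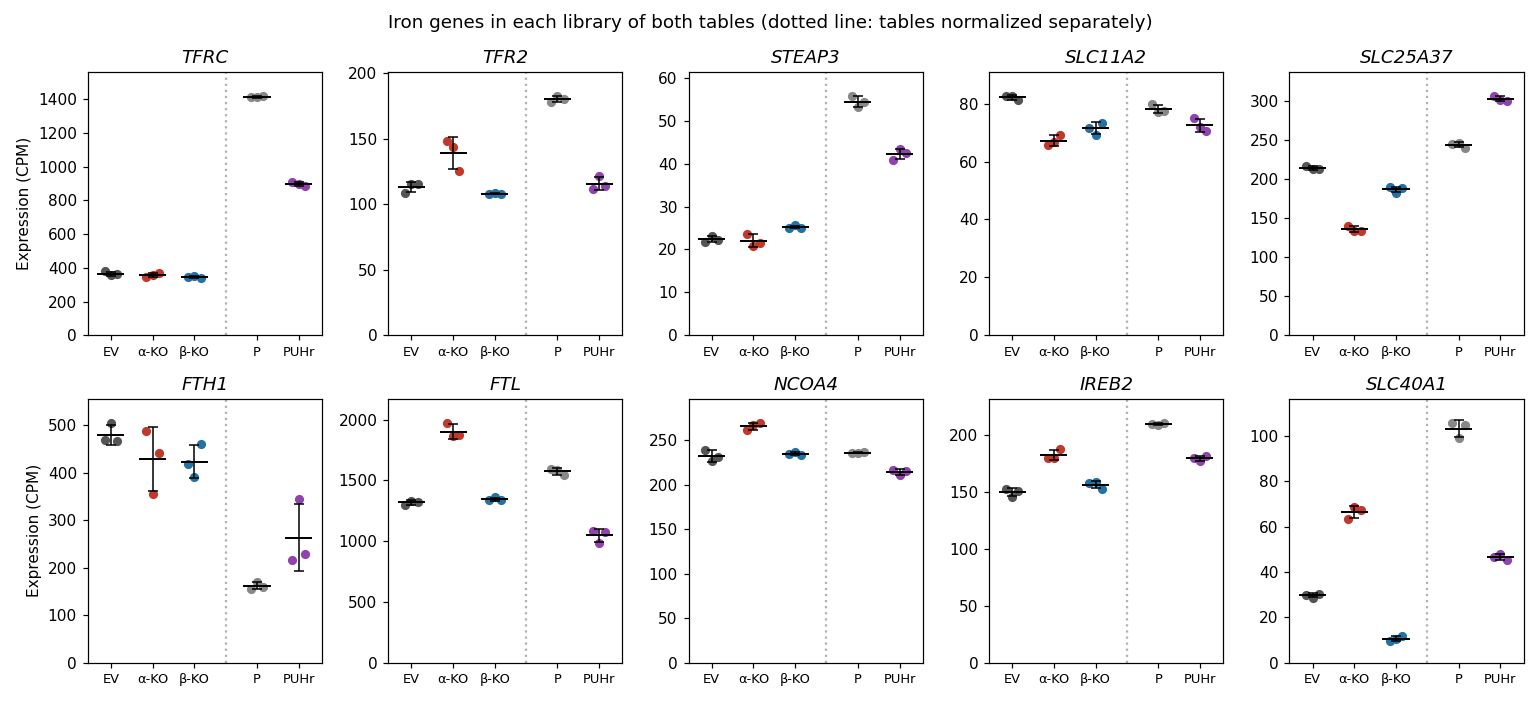
Each panel plots the expression in CPM (vertical axis) of 1 gene in every library by group, with the mean as a line and the SD as an error bar (n = 3); a dotted line parts the 2 tables, which were normalized separately. SLC40A1 is highest in HSP90α-KO and lowest in HSP90β-KO within the knockout table, TFRC, TFR2, FTL and SLC40A1 are lower in PUHr than in P, and FTH1 has the widest spread within groups.

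Mitochondrial import was represented by SLC25A37 (ENSG00000147454, chr8:23528956-23575463, plus strand), which encodes mitoferrin-1, the carrier that brings iron into the mitochondria of developing red cells for heme synthesis. It was at 216, 213 and 212 CPM in EV, at 139.7, 133 and 134 CPM in HSP90α-KO and at 189, 182 and 188 CPM in HSP90β-KO. The 3 groups were fully separated in the order EV, HSP90β-KO, HSP90α-KO from high to low. SLC25A37 fell by 0.66 in HSP90α-KO (SE 0.0315, adjusted p = 8.92e-16, limma) and by 0.20 in HSP90β-KO (adjusted p = 1.49e-05) on the log2 scale, and the direct contrast was -0.46 (adjusted p = 1.08e-12). The 41 neighbors within 5 Mb had medians of 0.01 and 0.06 in the 2 comparisons with EV. For P and PUHr the direction was opposite, from 244, 246 and 239.7 CPM in P to 306, 301 and 299.6 CPM in PUHr. Every PUHr library was above every P library (log2(FC) 0.31, SE 0.0232, adjusted p = 3.62e-08).

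Storage was represented by the ferritin chains and their autophagy receptor. FTH1 (ENSG00000167996, chr11:61959718-61967634, minus strand) encodes the heavy chain, which oxidizes iron for storage. It was at 469, 504 and 467 CPM in EV, at 487, 354 and 441 CPM in HSP90α-KO and at 419, 391 and 459.8 CPM in HSP90β-KO. HSP90α-KO replicate 1 lay within the EV range, and HSP90β-KO replicate 3 lay just under it. FTH1 passed the test in HSP90α-KO (log2(FC) -0.18, SE 0.0672, adjusted p = 0.0273, limma) and in HSP90β-KO (log2(FC) -0.18, SE 0.0672, adjusted p = 0.0356), with a direct contrast of 0.01 (adjusted p = 0.954) that turned to -0.13 (-0.125) with quantile normalization. That contrast was -0.10 (-0.095) without HSP90α-KO replicate 1 and passed at 0.14 (0.135) without HSP90α-KO replicate 2 (adjusted p = 0.0249, in a range up to 0.995), so that no order of the knockouts was resolved. Neither call was stable. In HSP90α-KO it was lost without HSP90α-KO replicate 2 (log2(FC) -0.05, adjusted p = 0.433), without EV replicate 2 (-0.14, 0.114) and with no intensity trend (0.247), in a range from 0.000136 to 0.433. In HSP90β-KO it was lost without EV replicate 2 (adjusted p = 0.136) or 3 (0.0569), without HSP90β-KO replicate 1 (0.0913) or 2 (0.204), with quantile normalization (0.186) and with no intensity trend (0.293), in a range from 0.000126 to 0.293.

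FTH1 varied more between libraries of a group than other genes did. Its pooled SD on the log2 scale was 0.156 in the knockout table, where the median of 604 genes of like level was 0.034 and all 604 were below it. In the resistance table the SD was 0.262, beside a median of 0.032 over 1996 genes, 99.8% of which were below. FTH1 was at 155, 169.9 and 159.5 CPM in P and at 216.5, 344 and 229 CPM in PUHr. All PUHr libraries were above P, and replicate 2 stood well above the other 2. FTH1 rose (log2(FC) 0.67, SE 0.117, adjusted p = 0.00022, limma), by 0.46 without PUHr replicate 2 (adjusted p = 1.1e-16), and the call was lost with no filter on low values (adjusted p = 0.155), the highest of its alternatives. Many processed pseudogenes nearly identical to FTH1 and FTL exist, so that their reads can be shared or lost in counting and these levels are uncertain. Listed FTH1 pseudogenes together had 25 to 57 reads per library in the knockout table and 38 to 85 in the resistance table, where FTH1 itself had 6838 to 12244 and 3401 to 8219.

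FTL (ENSG00000087086, chr19:48965309-48966879, plus strand) encodes the light chain, which aids the deposition of iron inside the ferritin shell. It was at 1298, 1329 and 1325 CPM in EV, at 1971, 1863 and 1869 CPM in HSP90α-KO and at 1335, 1359 and 1334 CPM in HSP90β-KO. HSP90α-KO libraries stood far above the rest, and HSP90β-KO libraries lay just above EV. FTL rose in HSP90α-KO (log2(FC) 0.53, SE 0.0270, adjusted p = 3.7e-15, limma), and by 0.32 with quantile normalization. The HSP90β-KO value of 0.03 did not pass (adjusted p = 0.467) and turned to -0.01 with median centering, and the direct contrast was 0.50 (adjusted p = 7.6e-15). FTL was at 1596, 1582 and 1544 CPM in P and at 1079, 982 and 1078 CPM in PUHr. The groups were far apart, and FTL fell by 0.59 on the log2 scale (SE 0.0310, adjusted p = 7.33e-10), by 0.38 with quantile normalization. The 186 neighbors of FTL within 5 Mb had a median log2(FC) of -0.11 in this comparison, and their part in it was not tested.

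The ratio of the 2 chains thus moved in HSP90α-KO and in PUHr, in opposite ways. In HSP90α-KO the FTH1 call was not stable, with a log2(FC) of -0.05 without HSP90α-KO replicate 2. FTL was at 0.53 there with all libraries. FTH1 reads per 100 FTL reads were 36.1, 37.9 and 35.2 in EV, 24.7, 19 and 23.6 in HSP90α-KO and 31.4, 28.8 and 34.5 in HSP90β-KO. They were 9.7, 10.7 and 10.3 in P and 20.1, 35 and 21.2 in PUHr. Each knockout library had fewer FTH1 reads per FTL read than each EV library, and each PUHr library had more than each P library. These ratios are a description without a test, and the PUHr mean rests in part on replicate 2.

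**Figure D3:**
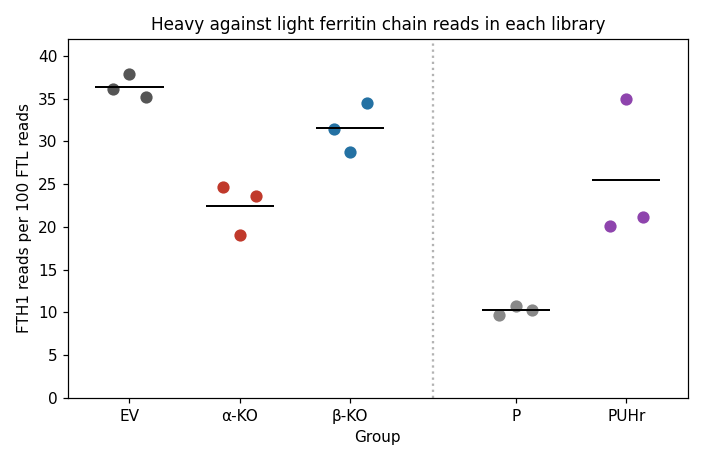
Points give FTH1 reads per 100 FTL reads (vertical axis) in each library by group, and lines give the group means; the dotted line parts the 2 tables. EV lies at 35.2 to 37.9 and HSP90α-KO at 19 to 24.7, while P lies at 9.7 to 10.7 and PUHr at 20.1 to 35, with replicate 2 as the highest.

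NCOA4 (ENSG00000266412, chr10:46005088-46030623, minus strand) encodes the receptor that carries ferritin to autophagy and so releases stored iron. It was at 239.5, 227 and 231 CPM in EV, at 262, 267 and 269.5 CPM in HSP90α-KO and at 235, 237 and 234 CPM in HSP90β-KO. HSP90α-KO libraries were above all others, and HSP90β-KO lay inside the EV range. NCOA4 rose in HSP90α-KO (log2(FC) 0.20, SE 0.0298, adjusted p = 3.81e-06, limma), with a direct contrast of 0.18 (adjusted p = 1.1e-05), while the HSP90β-KO value was 0.02 (adjusted p = 0.708) and turned to -0.03 (-0.025) with median centering and to -0.00 (-0.001) without EV replicate 2. NCOA4 was at 235.9, 235.6 and 236.5 CPM in P and at 217, 211 and 216 CPM in PUHr. The groups did not overlap, and the fall was by 0.14 on the log2 scale (SE 0.0237, adjusted p = 0.000197).

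Sensing was represented by IREB2 (ENSG00000136381, chr15:78437431-78501453, plus strand), which encodes iron regulatory protein 2, a protein that binds IREs and is degraded when iron is plentiful. It was at 153, 146 and 151 CPM in EV, at 179.7, 180 and 187 CPM in HSP90α-KO and at 158, 158 and 153 CPM in HSP90β-KO. All HSP90α-KO libraries were higher than the rest, and HSP90β-KO overlapped EV. IREB2 rose in HSP90α-KO (log2(FC) 0.28, SE 0.0325, adjusted p = 3.64e-08, limma), the HSP90β-KO value was 0.06 (adjusted p = 0.153), and the direct contrast was 0.22 (adjusted p = 1.56e-06). In the resistance table IREB2 was at 209.3, 208.8 and 210.5 CPM in P and at 179.8, 177 and 181 CPM in PUHr. These groups were narrow and separate, and IREB2 fell by 0.22 on the log2 scale (SE 0.0241, adjusted p = 1.94e-06). IREB2 is controlled largely at the protein level, which these data do not measure.

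Export was represented by SLC40A1 (ENSG00000138449, chr2:189560590-189583758, minus strand), which encodes ferroportin, the known exporter of iron from vertebrate cells. It was at 29.6, 28.7 and 30.5 CPM in EV, at 63.5, 68.6 and 67.3 CPM in HSP90α-KO and at 9.59, 10.5 and 11.5 CPM in HSP90β-KO, the last from 201 to 290 reads per library. The 3 groups were widely separated in the order HSP90α-KO, EV, HSP90β-KO from high to low. SLC40A1 rose in HSP90α-KO (log2(FC) 1.16, SE 0.0601, adjusted p = 4.54e-15, limma) and fell in HSP90β-KO (log2(FC) -1.49, SE 0.0601, adjusted p = 1.1e-16), and the direct contrast was 2.65, or 6.28 on the linear scale (adjusted p = 5.82e-23). In the resistance table it was at 105.7, 99.0 and 105 CPM in P and at 46.7, 48.1 and 45.4 CPM in PUHr. No PUHr library came near a P library, and SLC40A1 fell by 1.14 on the log2 scale (SE 0.0373, adjusted p = 4.18e-12). Over all alternatives tried, these values stayed between 1.05 and 1.20, between -1.55 and -1.16, and between -1.19 and -1.07 (-1.065), and each passed the test.

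The genes around SLC40A1 moved with it in HSP90β-KO. All 22 tested neighbors within 5 Mb on chromosome 2 were lower there (adjusted p under 0.05, limma), with a median log2(FC) of -0.60, and 1 of them, FSIP2 at -2.24, was at or below SLC40A1. In HSP90α-KO the median of the 22 neighbors was -0.12, with 10 lower and 7 higher, and 21 of them were at or below SLC40A1. In PUHr the median of 24 neighbors was -0.01, and none was as low as SLC40A1. The fall in HSP90β-KO therefore stands beside a shift of the same sign across the region, whereas no such median shift stood beside the changes in HSP90α-KO and PUHr. The part of the region in the HSP90β-KO value was not tested.

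**Figure D4:**
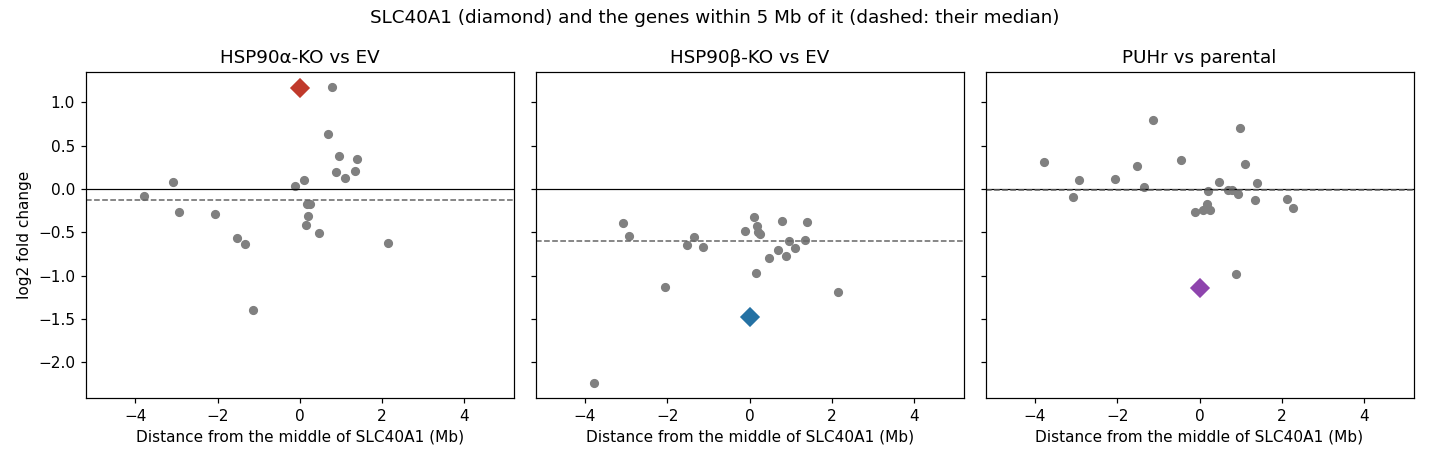
Each panel plots the log2 fold change (vertical axis) of SLC40A1 (diamond) and of the tested genes within 5 Mb of it (points) against the distance in Mb from the middle of SLC40A1, with a dashed line at the neighbors' median. The medians are -0.12 in HSP90α-KO, -0.60 in HSP90β-KO, where all 22 neighbors lie below 0, and -0.01 in PUHr.

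The genes whose 3 log2 fold changes lay nearest to those of SLC40A1, by Euclidean distance over 11726 genes that averaged at least 1 log2 CPM in each of the 2 tables, were GRK3, IGFL2-AS1 and ZNF304. GRK3 (chromosome 22, distance 0.518), a receptor kinase gene, was at 22.1 ± 0.785 CPM in EV, 53.3 ± 1.04 CPM in HSP90α-KO and 6.37 ± 0.433 CPM in HSP90β-KO, and at 17.4 ± 0.787 CPM in P and 5.87 ± 0.394 CPM in PUHr. IGFL2-AS1 (chromosome 19, distance 0.553), an antisense transcript whose reads may not be told from those of its partner because strand-aware counting was not stated, was at 40.4 ± 1.22, 105 ± 4.15 and 19.1 ± 1.56 CPM in the knockout table and at 20.9 ± 0.401 and 11.7 ± 0.231 CPM in the resistance table. ZNF304 (chromosome 19, distance 0.606), a zinc finger gene, was at 3.54 ± 0.103, 6.63 ± 0.651 and 1.80 ± 0.202 CPM and at 5.95 ± 0.249 and 2.67 ± 0.106 CPM in the same order. Like SLC40A1, these 3 were highest in HSP90α-KO and lower in PUHr than in P. They were chosen for this pattern, so that their values are a description.

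The other genes of iron handling were taken from a list of 64, of which 53 passed the filter for EV and the knockouts and 52 for P and PUHr. In HSP90α-KO 22 rose, 11 fell and 20 did not pass (median log2(FC) 0.06, beside -0.01 for all tested genes). In HSP90β-KO 10 rose, 19 fell and 24 did not pass (median -0.07, beside 0.00). In PUHr 21 rose, 17 fell and 14 did not pass (median 0.06, beside 0.00). Counted with a log2(FC) beyond 1 there were 6, 4 and 5. These shares stand beside the background shares given above, and nothing is read from them for the list.

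Among genes of uptake, reduction and the transferrin cycle (7 tested), 3 rose and 2 fell in HSP90α-KO, 3 fell and none rose in HSP90β-KO, and 2 rose and 3 fell in PUHr (limma). TF (ENSG00000091513, chr3:133746040-133796641, plus strand), which encodes transferrin, was at 33.2, 34.0 and 33.7 CPM in EV, at 4.74, 4.87 and 4.52 CPM in HSP90α-KO and at 26.9, 26.2 and 26.4 CPM in HSP90β-KO. It was at 7.91, 7.84 and 7.88 CPM in P and at 20.1, 19.99 and 22.1 CPM in PUHr. TF thus fell most in HSP90α-KO (log2(FC) -2.81, SE 0.0635, adjusted p = 1.04e-22), fell in HSP90β-KO (-0.34, adjusted p = 0.000105) and rose in PUHr (1.39, adjusted p = 3.89e-10). SLC11A1 (ENSG00000018280, chr2:218382029-218396894, plus strand), the macrophage relative of SLC11A2, was instead highest in HSP90α-KO. It was at 4.85, 5.11 and 5.26 CPM in EV, 18.0, 17.3 and 16.7 CPM in HSP90α-KO and 2.53, 2.09 and 2.85 CPM in HSP90β-KO, and at 5.45, 5.03 and 5.72 CPM in P and 1.69, 2.26 and 2.00 CPM in PUHr. Its log2(FC) was 1.75 (adjusted p = 3.61e-13), -1.01 (4.2e-08) and -1.42 (8.06e-07), and 42 of its 46 neighbors on chromosome 2 were also lower in HSP90β-KO (median -0.51), a part that was not tested.

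Of the storage, chaperone and ferritinophagy partners (5 tested), 2 rose and 1 fell in HSP90α-KO, 1 fell in HSP90β-KO, and 4 rose in PUHr. GLRX3, a cytosolic iron-sulfur glutaredoxin gene, rose by a log2(FC) of 0.68 in HSP90α-KO (adjusted p = 9.4e-15, limma), and PCBP4, a relative of the iron chaperone genes, fell by 0.47 there (adjusted p = 0.000787) and rose by 0.85 in PUHr (adjusted p = 1.13e-05). PCBP4 is named after its values were seen. Of the sensing genes (6 tested), 1 rose in HSP90α-KO, 1 rose and 1 fell in HSP90β-KO, and 2 rose and 2 fell in PUHr, with the largest at -0.41 for CIAO1 in HSP90β-KO. ACO1, which encodes iron regulatory protein 1, rose by 0.18 in HSP90α-KO (adjusted p = 0.00423) and by 0.13 in PUHr (adjusted p = 0.00856), and FBXL5, which marks iron regulatory protein 2 for degradation, passed in none of the 3 comparisons (log2(FC) -0.12, -0.04 and -0.02). CIAO1, of the cytosolic iron-sulfur assembly machinery, fell by 0.41 in HSP90β-KO (adjusted p = 1.97e-10), and CIAO3, of the same machinery, rose by 0.30 there (adjusted p = 0.000763). GLRX3, ACO1, FBXL5, CIAO1 and CIAO3 were likewise picked as examples with their values known.

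Of the export and systemic control genes (4 tested in each table), 3 fell in HSP90α-KO, 2 rose and 2 fell in HSP90β-KO, and 2 rose and 1 fell in PUHr. HEPH, a ferroxidase gene that works with ferroportin, had a log2(FC) of -0.80, -0.56 and -0.24 (adjusted p = 1.13e-17, 1.02e-13 and 1.07e-06, limma) and is also an example picked with its values known. BMP6 (chr6:7726099-7881728, plus strand), a ligand that induces the iron hormone hepcidin in liver, rose from 35 to 49 reads per EV library to 191 to 225 reads in HSP90β-KO (log2(FC) 2.24, SE 0.156, adjusted p = 7.42e-12). Its HSP90α-KO value of -0.38 passed narrowly (adjusted p = 0.0441) with overlapping libraries and failed in 13 of 19 alternatives (up to 0.215), among them the removal of EV replicate 1 (0.115) or 3 (0.0922), of HSP90α-KO replicate 2 (0.0844) or 3 (0.215) and of any HSP90β-KO replicate (0.0623, 0.0624 and 0.0626). BMP6 had 1 to 4 reads per library in the resistance table and was not tested there. HJV (chr1:146017468-146036746, minus strand), its co-receptor hemojuvelin, rose in HSP90β-KO (log2(FC) 0.93, adjusted p = 0.00295) and from 1.92 ± 0.393 CPM in P to 4.11 ± 0.486 CPM in PUHr (log2(FC) 1.08, adjusted p = 7.33e-05).

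The mitochondrial iron and iron-sulfur cluster genes (18 tested for the knockouts, 17 for PUHr) showed 10 higher and 3 lower in HSP90α-KO, 4 higher and 6 lower in HSP90β-KO, and 6 higher and 5 lower in PUHr. SLC25A28, which encodes mitoferrin-2, the wider-expressed relative of SLC25A37, rose by 0.53 in HSP90α-KO (adjusted p = 4.79e-07, limma) and by 0.21 in HSP90β-KO (adjusted p = 0.0232), opposite in sign to SLC25A37, and its PUHr value of -0.14 did not pass (adjusted p = 0.0785). GLRX5, a mitochondrial glutaredoxin gene of cluster transfer, had values of 0.26, -0.29 and 0.17 (adjusted p = 5.35e-06, 1.48e-06 and 0.00932). Both are examples picked with their values known. FDX2, a ferredoxin gene (chr19:10309916-10316015, minus strand), passed in both knockouts from 1 to 3 reads per EV library to 4 to 11 in HSP90α-KO and 5 to 10 in HSP90β-KO. At this depth no fold change is given for it, and its HSP90β-KO call was lost without EV replicate 3 (adjusted p = 0.0914) or HSP90β-KO replicate 3 (0.0514), with a range from 0.00442 to 0.134.

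Of the heme handling genes (8 tested), 4 rose and 1 fell in HSP90α-KO, 2 rose and 3 fell in HSP90β-KO, and 3 rose and 3 fell in PUHr. ABCG2 (ENSG00000118777, chr4:88090150-88231628, minus strand), an exporter of heme precursors, heme and drugs, was at 4.95, 6.27 and 4.42 CPM in EV, at 0.342, 0.570 and 0.308 CPM in HSP90α-KO, from 6 to 11 reads, and at 14.02, 14.6 and 14.4 CPM in HSP90β-KO. It was at 21.5, 19.4 and 21.4 CPM in P and at 54.7, 56.4 and 54.2 CPM in PUHr. ABCG2 fell in HSP90α-KO (log2(FC) -3.44, SE 0.169, adjusted p = 1.73e-15, limma) and rose in HSP90β-KO (1.46, adjusted p = 1.02e-07) and in PUHr (1.40, adjusted p = 9.58e-12). SLC48A1 (chr12:47753916-47782751, plus strand), which moves heme out of lysosomes, had values of 0.20, -0.40 and -0.70 (adjusted p = 0.00064, 5.85e-08 and 1.99e-08). FLVCR2 (chr14:75578620-75663214, plus strand), a transporter once described as a heme importer, went from 2 to 6 reads per EV library to 12 to 33 in HSP90α-KO (log2(FC) 2.20, SE 0.366, adjusted p = 1.24e-05). Its PUHr value of 0.75 (0.745; adjusted p = 0.0357) was from 6 to 7 reads in P and 11 to 14 in PUHr and was lost without P replicate 1 (0.1) or 2 (0.0741), in a range from 0.00853 to 0.1.

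The last group was other transcripts known for an IRE (5 tested), of which 2 rose and 1 fell in HSP90α-KO, 1 rose and 3 fell in HSP90β-KO, and 2 rose and 3 fell in PUHr. ALAS2 (ENSG00000158578, chrX:55009055-55030977, minus strand), which encodes the erythroid enzyme that starts heme synthesis, was at 203, 207 and 204 CPM in EV, at 68.4, 69.1 and 70.7 CPM in HSP90α-KO and at 153, 157 and 146 CPM in HSP90β-KO. It was at 127, 121 and 126 CPM in P and at 257, 241 and 252 CPM in PUHr. Groups were separated in both tables, in the same order as for SLC25A37, with a log2(FC) of -1.56, -0.43 and 1.01 (adjusted p = 5.52e-23, 9.72e-11 and 1.67e-12, limma). The 24 neighbors of ALAS2 had a median of -0.21 in HSP90α-KO, a part that was not tested. CDC42BPA (chr1:226989865-227318492, minus strand), a cytoskeletal kinase gene, rose by 0.78 in HSP90α-KO (adjusted p = 6.11e-16) and fell by 0.62 in HSP90β-KO (adjusted p = 2.77e-13), where 56 of its 61 neighbors were lower too (median -0.35, not tested as a source). The pattern searched above was found in the annotated UTRs of ALAS2 and CDC14A from this group.

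**Figure D5:**
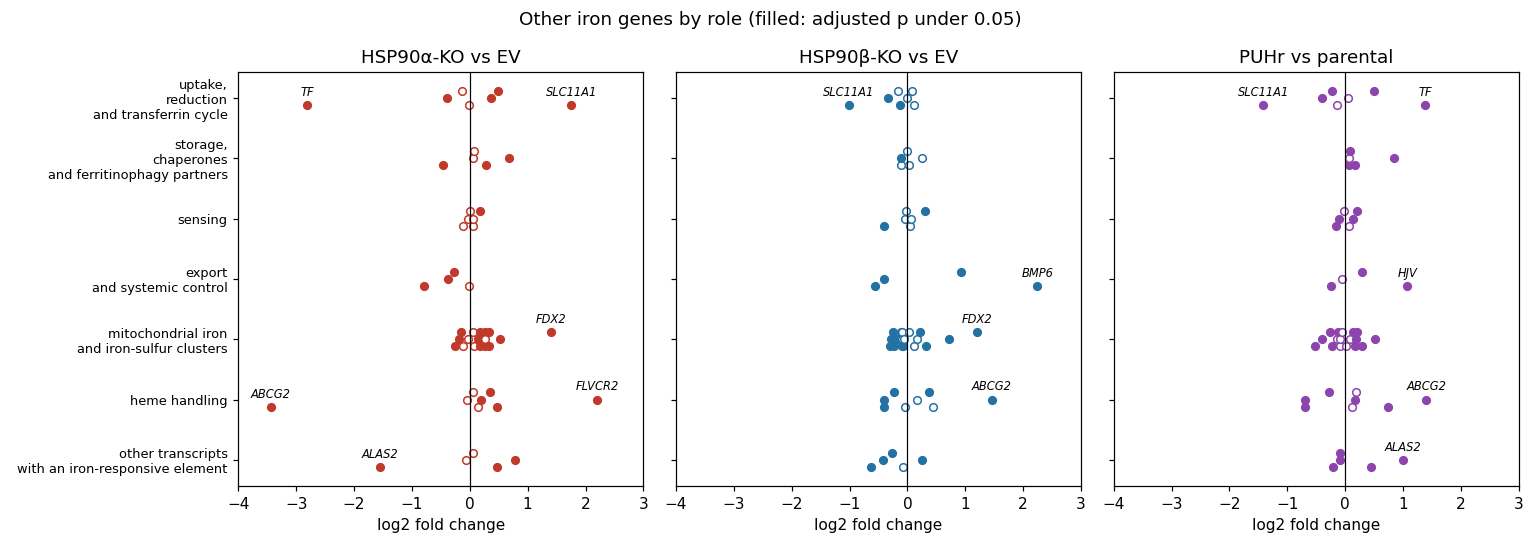
Each panel plots the log2 fold change (horizontal axis) of the other iron genes in 1 comparison, with 1 point per tested gene, arranged by role and filled where the adjusted p was under 0.05. Named points lie beyond 1, such as TF at -2.81 and ABCG2 at -3.44 in HSP90α-KO, BMP6 at 2.24 in HSP90β-KO and ALAS2 at 1.01 in PUHr.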

How the data were processed

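RNA-seq was done on 15 libraries of K562 cells with a stranded mRNA kit. The submitters' processing notes name FastQC, MultiQC, STAR, featureCounts, edgeR and hg38. Whether counting used strand was not stated. The authors deposited log2 CPM per gene in 2 tables, normalized separately. Whole reads were recovered from these values in every library (largest deviation 0.0), with a prior count of 1.979 or 2.000 reads. Values without a gene identifier (30 and 114, at 0.027% to 0.036% of reads) were left out. Identifiers were matched to GENCODE 44 for 17739 and 60370 genes.

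Genes reaching -1 log2 CPM in 3 libraries or more were kept and tested with limma 3.58.1 in R 4.3.3 (intensity trend, two-sided, Benjamini-Hochberg over all tested genes, adjusted p under 0.05), with 1 fit per table and no replicate block. Neighbors were tested genes within 5 Mb that averaged at least 1 log2 CPM. Of the wider list, named genes were those with an adjusted p under 0.05 and a log2(FC) beyond 1 in any comparison, or among the 2 largest passing changes in either direction. Examples outside this rule are marked. The alternatives were other filters, added constants, scalings and variance models, voom, a replicate block, the 6 compared libraries alone and each library left out. The members and lists were chosen with earlier results of these data known. The fit was tested on simulated data.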

Additional observations from a re-analysis of the deposited data

How the results depend on the processing

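Of 720 member values under alternatives, 667 kept their direction and their side of the threshold, 33 no longer passed, 9 newly passed and 11 changed sign. The count of members past the test in HSP90β-KO, 5, was 3 with quantile normalization and 3 to 6 with a library left out. In PUHr the wider list had 22 in place of 38 with no filter on low values, where 60510 genes were tested. With quantile normalization the log2(FC) of HJV in HSP90α-KO was 0.037, of HSP90AA1 in PUHr 0.081, of HSP90AB1 in PUHr 0.047 and, between the knockouts, of TFRC -0.063 and of FTH1 -0.125. With median centering, FTL in HSP90β-KO was at -0.014 and NCOA4 at -0.025, and with voom HJV in HSP90α-KO was at 0.035. With a library left out, values ranged for HJV in HSP90α-KO from -0.233 to 0.225, for STEAP3 in HSP90α-KO from -0.078 to 0.012, for NCOA4 in HSP90β-KO from -0.001 to 0.039 and for FTH1 between the knockouts from -0.095 to 0.135. The cause was not tested.

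With the replicate block 8, 5 and 10 members passed in HSP90α-KO, HSP90β-KO and PUHr, and 7 in place of 8 differed between the knockouts. Libraries of like number did not deviate together (correlations -0.048 to 0.045), so the numbers do not pair them. Limits are the unknown number of clones per group, 3 libraries per group, ferritin pseudogenes, and few reads for FDX2, FLVCR2 and BMP6.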
